A study of Mus musculus with 6 samples.

Results

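The 2 arrays of wild-type embryoid bodies, of 6 arrays in the series, were read across their dye channels. On each array the net Cy3 signal (mean spot signal minus the median local background) was set against the net Cy5 signal of the same spots. Cy3 carried the embryoid body RNA and Cy5 the reference RNA. All non-control spots with a mouse microRNA name entered, 1336 spots of 334 probes per array with 4 spots per probe, out of 1932 listed features. The embryoid bodies came from mouse embryonic stem cells of strain 129S7/SvEv Brd-Hprt b-m2 that carried wild-type human BRCA1 and were collected on day 7 of suspension culture. Per the labels, both channels of these arrays held RNA of wild-type embryoid bodies, so that equal signals would be the label's expectation. The other 4 arrays, 2 each of embryoid bodies with human BRCA1 carrying M1652I or R1699Q (the MI and RQ groups), have Cy5 labelled the same way and serve here only for the shared spread of the fit and as further readings of the reference. The labels number the WT arrays as biological replicates without saying that they came from separate cultures, so the p-values speak only for how far these 2 samples and the other arrays varied, and part of that variation may be technical.

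MicroRNAs are short RNAs cut from hairpin precursors, and bases 2 to 8 from the 5′ end, the seed, choose the messenger RNAs that they repress. Embryonic stem cells are known for a small set of microRNAs, chiefly the miR-290 cluster and the miR-302 and miR-367 cluster, and the let-7 family is known to build up as cells leave the stem cell state. Many other microRNAs are known for one tissue or lineage, such as miR-451 in red blood cells, miR-142 and miR-223 in white blood cells, miR-122 in liver, miR-1 and miR-133 in muscle, and miR-9 and miR-124 in brain. An embryoid body is an aggregate in which stem cells begin to form cells of several lineages, so its RNA is that of a mixture, and more cells of a type and more RNA per cell cannot be told apart.

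The mature sequences below carry the contrast between the channels. They are those of RefSeq (GRCm38.p6), 5′ to 3′, with the seed in capitals. The first 5 were among the brightest over Cy5 in the embryoid body channel, and miR-294, miR-295 and miR-302d share 1 seed.
miR-294: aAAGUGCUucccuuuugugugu
miR-295: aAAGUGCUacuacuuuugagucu
miR-302d: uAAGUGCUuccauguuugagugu
miR-290: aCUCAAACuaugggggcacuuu
miR-293: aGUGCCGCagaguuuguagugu

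The next 4, of the miR-17 family, hold the same letters shifted by 1 base and were shown because their ratios lay much closer to 0.
miR-17-5p: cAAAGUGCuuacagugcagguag
miR-20a: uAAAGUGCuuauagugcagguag
miR-106a: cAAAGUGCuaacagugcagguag
miR-93: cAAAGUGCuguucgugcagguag

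The let-7 members and the lineage microRNAs were brighter in the reference channel. The let-7 members share 1 seed, whereas the lineage microRNAs have a seed each.
let-7f: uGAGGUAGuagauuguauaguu
let-7a: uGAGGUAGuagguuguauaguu
let-7i: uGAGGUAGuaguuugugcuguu
miR-98: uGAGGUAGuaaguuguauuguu
miR-451: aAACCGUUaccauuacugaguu
miR-142-5p: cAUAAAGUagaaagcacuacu
miR-223: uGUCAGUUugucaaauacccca
miR-133b: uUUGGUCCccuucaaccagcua
miR-9: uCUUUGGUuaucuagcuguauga

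The channels did not hold like signals. Of 294 microRNAs tested, 260 (88.4%) differed between Cy3 and Cy5 at an adjusted p under 0.05 (limma on log2 Cy3 over Cy5 after loess within each array, against 0, with Benjamini-Hochberg adjustment). Of these, 135 (45.9%) were higher in Cy3 and 125 (42.5%) higher in Cy5, and with the scanner software's processed signals in place of loess the split was 105 against 157. A change past 2-fold was called for 141 microRNAs (48%), 68 (23.1%) in the Cy3 direction and 73 (24.8%) in the Cy5 direction by limma's treat test. In all 5 scalings tried, 100 microRNAs (34%) were called higher in Cy3 and 109 (37.1%) higher in Cy5. The log2 ratios ran from -7.04 to 9.45, with a median of 0.09 and with quartiles at -1.26 and 1.14, and 132 of the 294 lay within 2-fold of equality.

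The ratio was far closer between the arrays than between the channels. It had the same sign on both WT arrays for 283 of 294 microRNAs, and the 11 others lay within 0.14 of 0 in their mean. Over the 294 probes, which share array and labelling, the rank correlation of net signals was 0.982 between the arrays in Cy3 and 0.988 in Cy5, but 0.408 and 0.383 between Cy3 and Cy5 of the same array. The spread between the 2 arrays had a median SD of 0.14 on the log2 scale. Because Cy5 always held the reference, a probe's dye bias and its RNA difference cannot be told apart, and the test against 0 leaves out the reference's own spread.

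**Figure D1:**
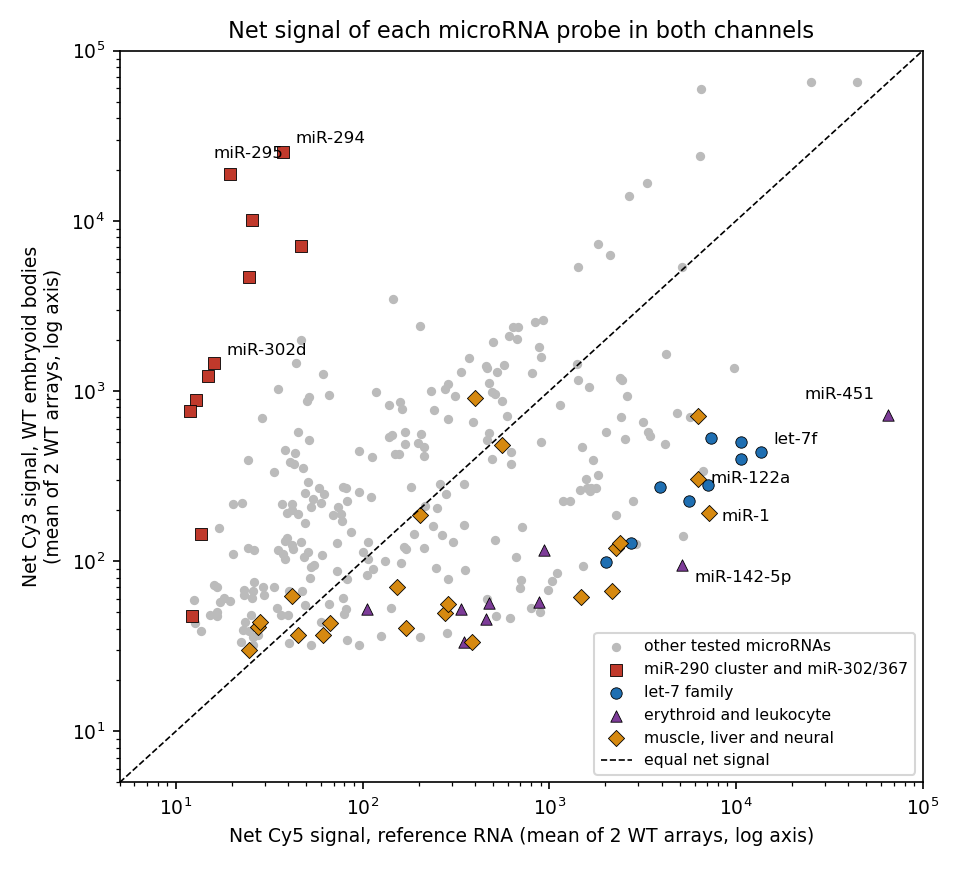
Net Cy3 signal of WT embryoid bodies against net Cy5 signal of the reference for the 294 tested probes, each the mean of 2 WT arrays, on log axes. The miR-290 cluster and the cluster of miR-302 and miR-367 lie above the line of equal signal, and let-7, blood cell, muscle, liver and neural members mostly lie below it, with miR-451 at the right edge.

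By the scanner software's flags, 248 of the 334 probes were well above background in Cy3 on both WT arrays and 259 in Cy5. Both channels met this for 223 probes, Cy3 alone for 25, Cy5 alone for 36 and neither for 50. The 25 seen in Cy3 alone included 5 members of the miR-290 cluster, 3 of the cluster that holds miR-302 and miR-367, 6 of the imprinted Dlk1-Dio3 cluster and 11 in no list. The 36 of 334 seen in Cy5 alone held 5 of the 12 neural probes. The leukocyte list (6 probes), liver, gut and kidney epithelium (4), the Hox clusters (5) and the X-linked testis list (6) gave 3 each. The erythroid (3), muscle (6), pancreas (6), epithelial (7), endothelial (1), eye (6), multiciliated cell (4) and miR-99/100 and miR-125 (5) lists gave 1 each. A further 11 were in no list.

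The negative control spots, which match no mouse microRNA, put a floor under these flags. Their mean net signal was 59.4 and 43.8 in Cy3 and 26.0 and 11.5 in Cy5 on replicates 1 and 2. A stricter limit, their mean plus 3 SD, was chosen after seeing the data. It was 371 and 261 in Cy3 and 135 and 66.6 in Cy5 on replicates 1 and 2. Above it on both arrays were 112 probes in Cy3 and 160 in Cy5. Folds given below by the software's flags do not use this limit. The brighter channel passed that limit for 80 of the 135 microRNAs called higher in Cy3 and for 98 of the 125 called higher in Cy5. The dimmer channel was at or under the limit on both arrays for 70 of the 135 and for 92 of the 125. For 21 of the 125, the Cy3 signal was no higher than the mean of the negative controls on either array.

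The miR-290 cluster, the leading microRNA locus of mouse embryonic stem cells, was the brightest group over Cy5 in the embryoid body channel. All 7 of its probes were called higher in Cy3, with a median log2 ratio of 6.81, against 0.09 over all 294 tested. All 7 were past 2-fold, with adjusted p from 1.6e-07 to 4.9e-07. Their net signals summed to 86224 and 50566 in Cy3 and to 218 and 146 in Cy5 on replicates 1 and 2. All 7 passed the negative control limit in Cy3 and 0 passed it in Cy5.

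The net Cy3 signal of miR-294 was 32466 on replicate 1 and 18568 on replicate 2, and its net Cy5 signal was 46.0 and 29.3. The software marked its Cy5 spots as well above background on both arrays, but they were under the negative control limit, so the size of its ratio has no upper end. Against that limit, net Cy3 was at least 241-fold and at least 279-fold higher on replicates 1 and 2. The fitted log2 ratio after loess was 9.45 ± 0.04 (SD, n = 2). For miR-295, which has the same seed, net Cy3 was 26316 and 11248 and net Cy5 28.1 and 11.1. Its Cy5 signal was well above background on 1 of 2 arrays and close to the mean of the negative controls, and against their limit net Cy3 was at least 195-fold and at least 169-fold higher. The fitted log2 ratio was 8.82.

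Net Cy3 of miR-293 was 12776 and 7528, against net Cy5 of 27.7 and 23.3 (well above background on 1 of 2 arrays), at least 94.8-fold and at least 113-fold over the same limit. The miR-290 probe, which matches the 5p arm, gave 7392 and 6834 in Cy3 and 52.9 and 40.8 in Cy5. Another 5p arm, miR-292-5p, gave 4778 and 4641 in Cy3 and 29.2 and 20.1 in Cy5 (well above background on 1 of 2 arrays). For these 3 microRNAs, both Cy3 values were far above both Cy5 values, and Cy5 lay under the negative control limit. The 5p arms miR-291a-5p and miR-291b-5p were not well above background in Cy5, so their ratios are bounds. Against the negative control limit, net Cy3 of miR-291a-5p was at least 10.8-fold and at least 15.2-fold higher on replicates 1 and 2. For miR-291b-5p it was at least 7.76-fold and at least 11.0-fold higher. On the MI and RQ arrays, where Cy5 is labelled as the same RNA, net Cy5 of miR-294 lay between 30.2 and 53.0 and that of miR-295 between 16.8 and 25.1.

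The miR-302 and miR-367 cluster, which is known for pluripotent cells at the stage just after the naive stem cell, showed the same side. Of 5 probes, 4 were tested and 3 were called higher in Cy3, and 0 of 5 were well above background in Cy5. Net Cy3 of miR-302d was 1628 and 1290, against 18.6 and 13.5 in Cy5. Against the negative control limit of Cy5, that is at least 12.1-fold and at least 19.4-fold on replicates 1 and 2. Net Cy3 of miR-302 was 1041 and 482, at least 7.72-fold and at least 7.24-fold over that limit. For miR-367, net Cy3 was 143 and 147, at least 1.06-fold and at least 2.21-fold over it. The star arms were dim: miR-302c* at 54.2 and 40.9 in Cy3 was not called (adjusted p = 0.055), and miR-302b* was not tested.

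**Figure D2:**
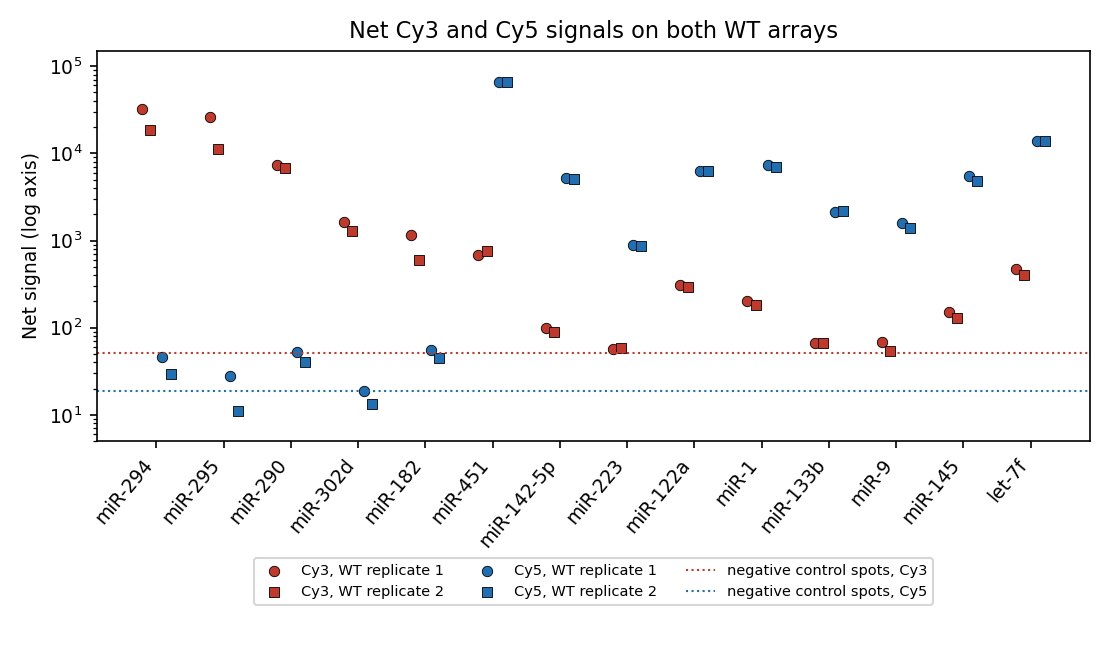
Net Cy3 (red) and net Cy5 (blue) signals of 14 microRNAs on WT replicate 1 (circles) and replicate 2 (squares), on a log axis. Dotted lines mark the mean of the negative control spots in each channel, averaged over both arrays. The 5 microRNAs on the left were brighter in Cy3 and the other 9 brighter in Cy5, on both arrays.

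The miR-17-92 cluster and its paralogues, which promote cell division and are high in stem cells and many dividing cells, were bright in both channels. All 12 probes were well above background in both, 10 were called higher in Cy3 (5 past 2-fold) and 1 higher in Cy5, with a median log2 ratio of 1.31. That median lay between 0.12 and 0.81 in the other 4 scalings, and 5 of the 11 calls held in all of them, so the size of this difference depended on the scaling. miR-92 gave 1211 and 984 in Cy3 and 299 and 278 in Cy5, with a log2 ratio of 1.96 ± 0.02 (SD, n = 2). miR-106a gave 2434 and 1175 in Cy3 and 984 and 772 in Cy5.

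miR-17-5p, with net Cy3 of 1877 and 1276 and net Cy5 of 886 and 931, had a log2 ratio of 1.87 ± 0.05 (SD, n = 2) after loess. Its ratio was 0.02 with floored net signals and 0.36 with processed signals, and it was not called in either. The 1 member called higher in Cy5 was miR-19a, at 441 and 433 in Cy3 and 633 and 611 in Cy5, with a log2 ratio of -0.39. The 3 members miR-19b, miR-20a and miR-106b turned sign in at least 1 other scaling. With net Cy3 of 1485 and 1384 and net Cy5 of 1403 and 1410, miR-19b was near equality before loess, although it was called higher in Cy3 after it.

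The eye and sensory organ list split by locus. The miR-183, miR-96 and miR-182 cluster, known from sensory cells of the eye and ear and also from pluripotent cells, was higher in Cy3 in all 3 members, with log2 ratios of 2.18, 2.06 and 2.74. Net Cy3 of miR-182 was 1155 and 603 against 55.2 and 45.3 in Cy5. miR-184, a microRNA of cornea and lens, was also higher in Cy3 (1151 and 902 against 356 and 198). miR-204, known from the pigment epithelium of the eye and the kidney, lay on the other side. Its net Cy5 was 298 and 272 and its Cy3 signal was not well above background. By the software's flags that gives at least 4.91-fold in the Cy5 direction. On replicate 1 its net Cy5 was under the Cy3 negative control limit of 371, against which no bound holds. The list's other probe, miR-211, was not tested.

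MicroRNAs of the imprinted Dlk1-Dio3 cluster leaned to Cy3, mostly by small ratios. The Dlk1-Dio3 cluster is a maternally expressed microRNA locus that is active in embryo and brain. Of its 41 tested probes, 38 were called higher in Cy3 and 0 higher in Cy5, against 45.9% and 42.5% of all 294 tested. The median log2 ratio was 0.79, against 0.09 over all tested. Of those 38, 11 were past 2-fold, 12 had a Cy3 signal over the negative control limit and 24 were called in all 5 scalings. The negative control spots were themselves brighter in Cy3 in mean net signal (59.4 and 43.8 against 26.0 and 11.5). What this adds to the ratios of the dim members was not tested. The highest ratio was that of miR-666, 1362 and 1571 in Cy3 and 54.8 and 32.8 in Cy5, with a log2 ratio of 3.69 ± 0.53 (SD, n = 2). Its Cy5 signals were under the negative control limit, against which net Cy3 was at least 10.1-fold and at least 23.6-fold higher. miR-127 gave 1074 and 851 in Cy3 and 528 and 492 in Cy5. The 2 lowest, miR-376b* and miR-154, were not called and turned sign with the processed signals. The brightest member, miR-494 (25392 and 22593 in Cy3, 7398 and 5492 in Cy5), had a log2 ratio of 0.89 after loess and of -0.02 with the processed signals.

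The cluster in an intron of Sfmbt2, a tandem array of related hairpins known from stem cells and placenta, was called higher in Cy3 in all 7 probes and in all 5 scalings. The median log2 ratio was 1.19, with miR-669c at 2.12, miR-466 at 2.00, miR-669b at 0.97 and miR-297b at 0.88. In net signal, miR-466 gave 471 and 395 in Cy3 and 45.2 and 41.7 in Cy5. The members share sequence, so their probes may read each other's RNA, and 4 of the 7 passed the negative control limit in Cy3.

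Outside the lists, 124 microRNAs were tested, of which 61 were called higher in Cy3 and 39 higher in Cy5. The shares over all 294 tested were 45.9% and 42.5%. Past 2-fold were 33 and 14 of the 124, against 23.1% and 24.8% of all tested. Several probes of late, little-studied entries led in Cy3. miR-712, whose hairpin lies in the spacer of the ribosomal RNA precursor, gave 3061 and 3866 in Cy3 and 150 and 143 in Cy5, with a log2 ratio of 4.80 ± 0.68 (SD, n = 2). miR-689 gave 1786 and 2194 in Cy3 and 53.8 and 39.4 in Cy5, and miR-714 gave 2135 and 2691 against 203 and 204. Whether these probes read mature microRNAs or other labelled RNA was not tested.

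The brightest probes of the Cy3 channel by mean net signal were miR-709, miR-690, miR-762, miR-294, miR-494, miR-295, miR-711, miR-705, miR-293 and miR-298. miR-709 and miR-690 were saturated in Cy3 on both arrays, at net signals of 65241 and 65242, and were also among the 10 brightest in Cy5. Their log2 ratios of -0.74 and -1.82 after loess turned sign in at least 2 of the other 4 scalings, and no direction is given for them. miR-762, miR-711, miR-705 and miR-298 were called higher in Cy3 in all 5 scalings, with log2 ratios between 1.77 and 2.30. The brightest probes of the Cy5 channel were miR-451, miR-690, miR-709, let-7f, let-7a, let-7c, miR-29b, let-7b, miR-1 and let-7d. Probe brightness also depends on the probe, so this order is no order of RNA amounts.

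**Figure D3:**
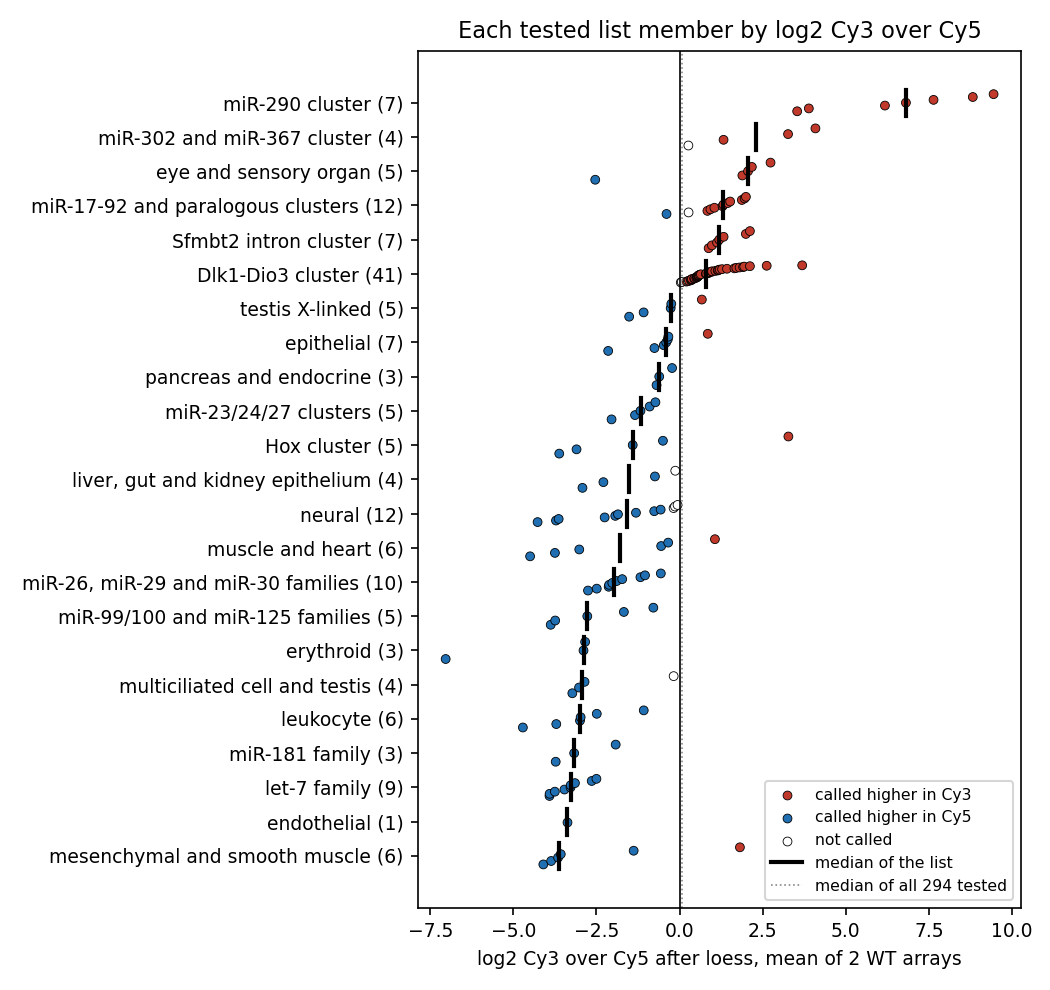
Log2 Cy3 over Cy5 after loess (mean of 2 WT arrays) of each tested member of 23 lists, with the number tested in brackets. Points are coloured by call, thick bars are list medians, and the dotted line is the median of all 294 tested, 0.09. The 6 lists at the top have medians above 0 and the 17 others medians below 0.

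The let-7 family, which holds back growth and stem cell genes in differentiated cells, lay wholly on the Cy5 side. All 9 members were called higher in Cy5 and past 2-fold, with log2 ratios from -3.91 to -2.50, a median of -3.28 and adjusted p from 7.8e-07 to 8.6e-05. In the other 4 scalings the median lay between -5.39 and -4.31, further from 0 than after loess. Summed net signals of the 9 were 2945 and 2787 in Cy3 and 64728 and 62724 in Cy5. All 9 were well above background in Cy3 too, and 4 of them passed the negative control limit there.

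Net Cy5 of let-7f was 13682 on both replicates, against 472 and 399 in Cy3. let-7a gave 10998 and 10368 in Cy5 and 418 and 376 in Cy3. For both members the 2 channels were separated on both arrays. let-7i gave 2787 and 2696 in Cy5 and 124 and 132 in Cy3, and miR-98, which carries the let-7 seed, gave 1963 and 2085 against 98.8 and 98.2. The least uneven member, let-7b, had net Cy5 of 7564 and 7142 and net Cy3 of 536 and 518, a log2 ratio of -2.50 ± 0.46 (SD, n = 2).

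Blood cell microRNAs were bright in Cy5. All 3 erythroid probes and all 6 leukocyte probes were called higher in Cy5 in all 5 scalings, with median log2 ratios after loess of -2.89 and -2.99. In the other 4 scalings the medians lay between -7.04 and -2.52 for the erythroid and between -6.24 and -2.66 for the leukocyte probes. miR-451, which red cells make in large amounts during maturation, was saturated in Cy5 on both arrays at 65228 and 65230 and gave 687 and 752 in Cy3. In net signal, Cy5 was thus at least 86.7-fold higher on both arrays. The fitted log2 ratio was -7.04 after loess and between -8.14 and -6.44 in the other 4 scalings. Saturation of Cy5 was also seen on the 4 MI and RQ arrays, with net signals of 65228 to 65229. miR-144, cut from the same transcript as miR-451, gave 342 and 355 in Cy5 and was not well above background in Cy3. By the software's flags that gives at least 5.97-fold. On replicate 1 its net Cy5 was under the Cy3 negative control limit of 371, against which no bound holds. miR-486, also erythroid, gave 492 and 455 in Cy5 and 59.2 and 53.8 in Cy3.

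miR-142-5p, which is made across the blood lineage, gave 5212 and 5035 in Cy5 and 98.3 and 90.2 in Cy3, with a log2 ratio of -4.71 ± 0.28 (SD, n = 2). miR-223, a microRNA of neutrophils and monocytes, gave 880 and 874 in Cy5 and 56.9 and 58.5 in Cy3. miR-150, of mature lymphocytes, gave 956 and 912 in Cy5 and 123 and 109 in Cy3. In all 3, both Cy5 values were above both Cy3 values. miR-155, which activated lymphocytes and macrophages raise, was the weakest of the list, at 106 and 105 in Cy5 and 48.9 and 56.0 in Cy3. Summed over the 6 leukocyte probes, net Cy3 was 439 and 398 and net Cy5 7990 and 7678, and 0 of the 6 passed the negative control limit in Cy3. The 3 miR-181 probes, of a family known from lymphocyte development and from brain, were also called higher in Cy5, with miR-181a at -3.73, miR-181b at -3.17 and miR-181c at -1.92.

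Liver and muscle microRNAs were likewise bright in Cy5. miR-122a, the dominant microRNA of hepatocytes, gave 6289 and 6305 in Cy5 and 311 and 297 in Cy3, with a log2 ratio of -2.92 ± 0.49 (SD, n = 2). miR-194 and miR-192, of gut, liver and kidney epithelium, were called higher in Cy5. By the software's flags miR-194 was higher by at least 4.79-fold. For miR-192 the log2 ratio was -0.74 on dim signals of 68.1 and 66.2 in Cy5. The other member of that list, miR-215, was not called (30.3 and 26.2 in Cy5, adjusted p = 0.24).

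Of the 6 muscle and heart probes, 5 were called higher in Cy5 and 1 higher in Cy3. In Cy3, 1 of the 6 passed the negative control limit on both arrays. miR-1, of heart and skeletal muscle, gave 7370 and 6936 in Cy5 and 201 and 184 in Cy3. miR-133b gave 2152 and 2165 in Cy5 and 67.2 and 66.5 in Cy3, a log2 ratio of -4.50 ± 0.25 (SD, n = 2). Its Cy3 signals were under the negative control limit (371 and 261), so the size of its ratio has no upper end. The 1 probe called higher in Cy3 was miR-206, of skeletal muscle and its precursors, at 892 and 930 in Cy3 and 398 and 404 in Cy5. Its log2 ratio of 1.06 ± 0.72 (SD, n = 2) lost the call in 2 of the other 4 scalings, and its net Cy5 on the MI and RQ arrays was higher, 568 to 742. The hairpins of miR-206 and miR-133b lie within 10 kb of each other. miR-208, of heart muscle, was not well above background in either channel on either array, so its call at -0.34 rests on background signals.

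Neural microRNAs were on the Cy5 side or not called. Of 12 probes, 9 were called higher in Cy5 in all 5 scalings, 0 higher in Cy3 and 3 neither, with a median log2 ratio of -1.58 after loess and between -3.99 and -1.23 in the other 4 scalings. In Cy3, 2 of the 12 passed the negative control limit on both arrays. miR-9, of neural progenitors and neurons, gave 1577 and 1390 in Cy5 and 68.7 and 54.5 in Cy3, a log2 ratio of -4.27 ± 0.15 (SD, n = 2). Its Cy3 signals were under the negative control limit (371 and 261), so the size of its ratio has no upper end. miR-124a, the leading neuronal microRNA, gave 6348 and 6124 in Cy5, but also 690 and 728 in Cy3. miR-128a gave 2399 and 2135 in Cy5 and 138 and 102 in Cy3. The 2 highest ratios of the list, miR-138 at -0.14 and miR-212 at -0.06, were not called (adjusted p = 0.46 and 0.47).

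Mesenchymal and smooth muscle microRNAs had the lowest median after loess of the lists with over 1 tested member, -3.61. That rank held after loess only, and in each of the other 4 scalings the let-7 median was lower. Of the 6 probes, 5 were called higher in Cy5 and 1 higher in Cy3. miR-145 gave 5559 and 4856 in Cy5 and 151 and 129 in Cy3, and its cluster partner miR-143 gave 2952 and 2883 against 148 and 104. Both are known from smooth muscle. miR-199a and miR-199b, of connective tissue cells, had log2 ratios of -3.57 and -3.65. miR-214, whose hairpin lies within 10 kb of one of miR-199a, went the other way, at 1518 and 1064 in Cy3 and 635 and 410 in Cy5, a log2 ratio of 1.82 ± 0.06 (SD, n = 2), and was called in all 5 scalings. miR-21, widely made in adult tissue, gave 4865 and 4835 in Cy5 and 907 and 569 in Cy3.

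The single endothelial probe, miR-126-5p, gave 616 and 616 in Cy5 and was not well above background in Cy3. By the software's flags that gives at least 10.2-fold, but the Cy3 negative control limit (371 and 261) leaves a smaller bound. The Hox cluster microRNAs lie among the genes that pattern the body axis, and miR-10a, miR-10b, miR-196b and miR-196a were called higher in Cy5. miR-10a gave 800 and 794 in Cy5 and 58.2 and 47.9 in Cy3. miR-10b gave 492 and 544 in Cy5, at least 8.25-fold by the software's flags and less against the Cy3 negative control limit. miR-615, which lies in an intron of a Hoxc gene, was called higher in Cy3 instead, at 865 and 1194 against 37.0 and 33.0, with a log2 ratio of 3.27 ± 0.42 (SD, n = 2). Its Cy5 signals were under the negative control limit, against which net Cy3 was at least 6.42-fold and at least 17.9-fold higher. Of the multiciliated cell and testis list, miR-449, miR-34b and miR-34c were called higher in Cy5, with log2 ratios of -3.23, -3.02 and -2.86, and miR-449b was not called.

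The broadly expressed families that are known to rise with differentiation were also on the Cy5 side. All 5 probes of the miR-99/100 and miR-125 families were called higher in Cy5, from miR-100 at -3.88 and miR-99a at -3.74 to miR-99b at -0.79. miR-125b gave 6885 and 6386 in Cy5 and 371 and 306 in Cy3. All 10 probes of the miR-26, miR-29 and miR-30 families were called higher in Cy5, with a median of -1.96 after loess and between -3.37 and -2.47 in the other 4 scalings. After loess, miR-30e was lowest at -2.75 and miR-26a highest at -0.56, but miR-26a lay between -2.59 and -1.79 in the other 4 scalings and was not the highest there. All 5 probes of the miR-23, miR-24 and miR-27 clusters were called higher in Cy5, with a median of -1.17 after loess, between -3.08 and -2.26 in the other 4 scalings, and with miR-27a lowest after loess at -2.05. In all 3 lists every call held in all 5 scalings.

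After loess, the epithelial, pancreatic and X-linked testis lists had medians between -0.61 and -0.27, and their lowest medians in the other 4 scalings were -1.08, -1.23 and -2.26. Of 7 epithelial probes, 6 were called higher in Cy5, but 1 of them past 2-fold, and the median was -0.40. miR-203, of skin, gave 209 and 198 in Cy5 and was not well above background in Cy3. By the software's flags that gives at least 3.69-fold. Its net Cy5 was under the Cy3 negative control limit (371 and 261) on both arrays, so no bound holds against that limit. miR-200a, at 1446 and 878 in Cy3 and 1533 and 1324 in Cy5, was called higher in Cy3 at 0.85 after loess, but its ratio was below 0 in the other 4 scalings. miR-429 and miR-200b, its neighbours, were at -0.34 and -0.35 and turned sign with no centring. Of 6 pancreas and endocrine probes, 3 were tested, and all 3 were called higher in Cy5 at a median of -0.61. Of these 3 calls, 2 held in all 5 scalings and 1 had a Cy5 signal over the negative control limit. Summed over the 6 probes, net Cy3 was 528 and 390 and net Cy5 487 and 455. miR-375, of islet cells, was well above background in Cy5 on 1 array and in Cy3 on 0. Of the X-linked testis list, miR-471, miR-465, miR-463 and miR-470 were called higher in Cy5 and miR-468 higher in Cy3, and 1 member, miR-471, passed 2-fold. None of the 5 passed the negative control limit in Cy3, and for miR-463 and miR-470 net Cy3 was above net Cy5 on both arrays (41.2 and 30.2 against 31.1 and 20.9, and 59.5 and 51.5 against 55.9 and 42.5).

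Members of 1 seed family mostly lay on 1 side, as their pooled lists did. Of 14 seeds held by at least 3 different tested mature microRNAs, 11 had all members on 1 side of 0 after loess. Among the 11, miR-106b and miR-20a (seed AAAGUGC) and miR-200b and miR-429 (seed AAUACUG) turned sign in at least 1 other scaling. The AAGUGCU seed of miR-294, miR-295 and miR-302d ran from 4.09 to 9.45, and the let-7 seed GAGGUAG from -3.91 to -2.50. The AAAGUGC seed of the miR-17 family ran from 0.27 to 2.00, without overlap with the AAGUGCU members. The seed AGUGCAA of miR-130a, miR-130b, miR-301 and miR-721 was also on the Cy3 side, from 0.83 to 2.97 after loess. Net signals of miR-130b were 2727 and 2052 in Cy3 and 739 and 623 in Cy5. In the other 4 scalings its ratio was smaller, between 1.05 and 1.72, and that of miR-130a lay between 0.83 and 1.51. The 3 split seeds were CCCUGAG, with miR-351 at 0.02 against miR-125b at -2.78, GGCAGUG, with miR-34a at 0.11 against miR-449 at -3.23, and AUUGCAC, with miR-32 at -0.72 against miR-92 at 1.96. Of these, miR-351 and miR-34a were not called and fell below 0 in 2 and 3 of the other 4 scalings, so only the AUUGCAC seed held calls in both directions. Near-identical members of a family can bind each other's probes, so members are not independent readings.

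**Figure D4:**
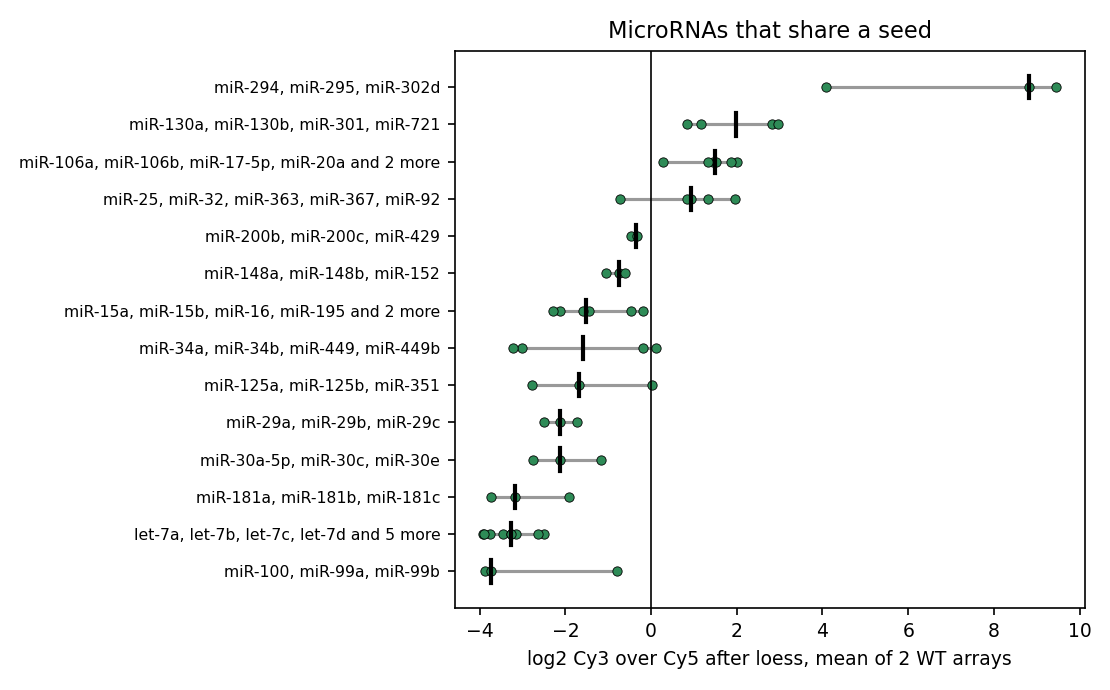
Log2 Cy3 over Cy5 after loess (mean of 2 WT arrays) of microRNAs grouped by shared seed, 1 row for each of 14 seeds, with the range as a grey line and the median as a black bar. The miR-294, miR-295 and miR-302d group runs from 4.09 to 9.45 and the let-7 group from -3.91 to -2.50.

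Hairpins that lie close together seldom held calls in both directions. Among 39 groups of hairpins whose neighbours lie within 10 kb, with at least 2 tested probes, 34 did not hold calls in both directions and 5 did. Over all 294 tested, 45.9% were called higher in Cy3 and 42.5% higher in Cy5. The 34 include groups with an uncalled member, such as miR-212 beside miR-132. MicroRNAs with several hairpins, such as miR-181a, miR-181b, let-7c and miR-24, entered more than 1 group, so the groups are not separate readings. The 5 groups with calls in both directions were miR-133b with miR-206, miR-199a with miR-214, and miR-26a with miR-546. The others were the miR-17-92 cluster through miR-19a, and miR-200b and miR-429 with miR-200a. The only hairpin with both arms matched and tested, that of miR-24 and miR-189, had both arms called higher in Cy5, at -1.17 and -0.66.

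The ratio also went with base composition. Over the 240 tested microRNAs with a matched RefSeq sequence, the rank correlation of log2 Cy3 over Cy5 with GC content was 0.37, given as a description across probes that share arrays and dyes. The median log2 ratio was -0.59 in the 80 microRNAs of lowest GC content, -0.10 in the middle 80 and 0.59 in the 80 of highest. What GC content adds to the ratios above was not tested.

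**Figure D5:**
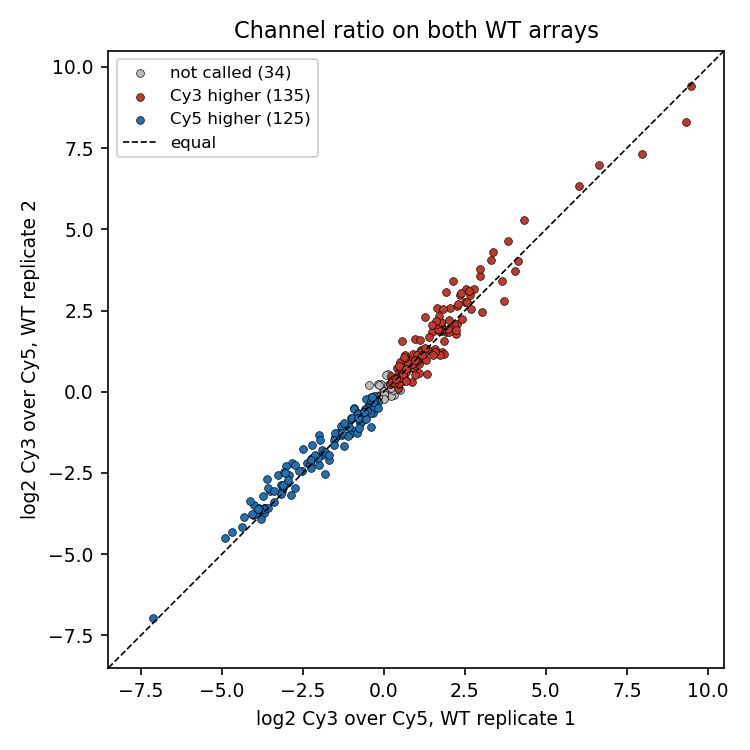
Log2 Cy3 over Cy5 after loess of the 294 tested microRNAs on WT replicate 1 and WT replicate 2, coloured by call (135 higher in Cy3, 125 higher in Cy5, 34 not called). Points follow the dashed line of equal ratios, and 283 of 294 have the same sign on both arrays.

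Set against the label, the embryoid body channel held stem cell microRNAs at high signal, and the reference channel held microRNAs known from red and white blood cells, liver, muscle, brain and connective tissue. In the reference channel, all 7 miR-290 and all 5 miR-302 and miR-367 probes were under the negative control limit on both arrays. The Cy5 signals thus go against the label of wild-type embryoid body RNA. The source of the reference RNA was not tested. Net Cy3 of WT replicate 1 was higher than that of replicate 2 by a median factor of 1.21, and net Cy5 by 1.12.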

How the data were processed

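The 2 WT arrays were analysed, and all 6 arrays entered the fit. The file headers name Agilent Feature Extraction, version 9.5.1.1, as the source of the scanner files. Mean and local background intensity per dye and spot, on a linear scale, were deposited by the authors, as was a log10 ratio of processed signals, per the file headers. The deposited value table equals minus that log10 ratio (largest difference 0). Aligner and genome build do not apply. Background was corrected by limma 3.58.1 (R 4.3.3) with normexp at an offset of 50, and each array was then normalised by loess, with control and outlier spots at weight 0. Outlier spots (61 and 60) were removed and the spots of a probe averaged.

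A probe was tested if the scanner software marked more than 50% of its spots as well above background, in Cy3 or in Cy5, on 2 or more arrays. A mean per group was fitted to all 6 arrays (3 residual degrees of freedom) and the WT mean was tested against 0. Where a channel was not well above background on both arrays, a bound was taken from loess and Aquantile levels. The bound of miR-451 (saturated) and those of miR-293, miR-294 and miR-295 were taken from net signals. On simulated ratios with independent normal noise, 100 of 294 probes were changed and the rest left at no change. There, 94.7% of 2-fold changes were recovered, with 3.8% false calls. The simulation held no dye bias, loess step or signals at background, so it cannot say how many calls in the data are false. Of 334 probes, 278 matched a RefSeq mature sequence, allowing 3 missing end bases. A seed or neighbour needed such a match, and the short matches of miR-23b and miR-669c, which fell on other family members, were left out.

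Members and lists were chosen with earlier results of these data known. Named were the 12 highest and 12 lowest called, the 10 brightest per channel, and of each list all members (up to 5) or the 2 highest and 2 lowest tested. A further 28 were named after their values were seen. Alternatives were 4 scalings, the dim filter, outlier spots, WT arrays alone, treat, each array left out and the replicate number as a block.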

Additional observations from a re-analysis of the deposited data

How the results depend on the processing

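Counts of calls in either direction stayed within 1.5 times the main counts (135 and 125) under every alternative but treat against 2-fold, which gave 68 and 73. They ran from 105 to 147 for Cy3 and from 116 to 157 for Cy5 over the other alternatives, and without replicate 1 or replicate 2 from 125 to 126 and at 117. With the replicate number as a block the counts were 137 and 125. The numbers pair the samples weakly at most: deviations of same-numbered samples correlated at 0.18 (WT with MI), 0.12 (WT with RQ) and 0.04 (MI with RQ). Medians of all 23 lists kept their sign under each alternative. Treat, WT arrays alone, the replicate block and the dropped dim filter left the fitted ratios unchanged, so there the signs were fixed in advance. The median of all probes moved by -0.11 (median centring), 0.12 (no centring), -0.18 (floored net signal) and -0.88 (processed signals). With the negative control limit, added after seeing the data, 112 probes were above it in Cy3, 160 in Cy5, 86 in both and 74 in Cy5 alone. Of 1474 comparisons of single named microRNAs with an alternative, 1345 kept their direction and side of the threshold. In the alternatives that leave the fitted ratios unchanged, only the side of the threshold could move. Under the others, 33 comparisons changed sign, and the cause was not tested. With median centring these were miR-106b (-0.054), miR-19b (-0.20), miR-200a (-0.57), miR-34a (-0.155), miR-690 (0.33) and miR-709 (1.14). With no centring they were miR-200a (-0.34), miR-200b (0.04), miR-429 (0.061), miR-212 (0.11), miR-215 (0.055), miR-690 (0.55) and miR-709 (1.37). With floored net signals they were miR-106b (-0.53), miR-19b (-0.71), miR-20a (-0.12), miR-200a (-1.09), miR-34a (-0.63), miR-351 (-0.17) and miR-709 (0.63). With processed signals they were miR-106b (-0.29), miR-154 (-0.71), miR-19b (-0.53), miR-200a (-0.81), miR-34a (-0.39), miR-351 (-0.38), miR-376b* (-1.04) and miR-494 (-0.017). Leaving out 1 replicate turned 5 microRNAs near 0, whose values without replicate 1 and without replicate 2 were 0.19 and -0.47 (miR-138), -0.11 and 0.32 (miR-34a), -0.13 and 0.21 (miR-376b*), 0.14 and -0.01 (miR-154) and 0.23 and -0.19 (miR-351). The number of arrays limits the precision, and dim signals near the negative controls limit the ratios.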
